A study of Mus musculus with 14 samples.

Results

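The 8 libraries described here profile the chromatin of CD11b+ macrophages sorted from brain tumours of mice dosed with pracinostat, 4 with an antibody against acetylated lysine 27 of histone H3 (H3K27ac) and 4 with normal rabbit IgG. They were taken by their labelled treatment and antibody from the 14 libraries of the series, whose other 6 come from mice given vehicle (3 with H3K27ac and 3 with IgG). All animals were NSG mice, which lack mature T, B and NK cells, carrying orthotopic xenografts of the human glioblastoma line T387. The pracinostat groups received the drug by oral gavage at 30 mg/kg, 4 times per week for 3 weeks from day 7 after implantation, whereas the preparation text of the same labels gives 3 mg/kg; the vehicle groups received the DMSO-containing solvent without drug. At the endpoint the tumours were dissociated, CD11b+ cells were isolated by flow sorting and lightly fixed in 0.1% formaldehyde, and the study profiled them by CUT&Tag, in which the antibody directs a transposase to cut and tag the DNA around it. The labels call the libraries biological replicates. They do not give the sex and age of the mice, the number of animals behind a library, or whether an H3K27ac and an IgG library of the same number came from the same animal. A bulk library of sorted cells cannot tell fewer cells carrying a mark apart from less of the mark in each cell.

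H3K27ac is laid down mainly by the acetyltransferases p300 and CBP and is found at active promoters and enhancers. Zinc-dependent histone deacetylases (HDACs) remove it, often within the NuRD, Sin3, CoREST and NCoR corepressor complexes, and pracinostat is a hydroxamate inhibitor of these enzymes. CD11b, the product of Itgam, is an integrin chain of microglia, of macrophages derived from blood monocytes, of neutrophils and of some dendritic cells, so a CD11b sort can hold all of them. Macrophage identity rests on PU.1 (Spi1) and C/EBP factors at lineage enhancers, and signalling factors such as AP-1, NF-kB, IRF and STAT proteins act on the same landscape.

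Each library was deposited as a list of summits, single positions where a peak of signal is highest, with a score for each. The scores were used solely to rank summits within a list: the percentile of a summit is its rank among all summits of that list, with 100 the highest. A gene's percentile is that of its highest-ranked summit within 1 kb of either end of the gene, and 0 where none lies there. Low ranks are coarse, because 15.2% to 25.1% of the summits of an H3K27ac list share its lowest score. A gene was called marked where all 4 H3K27ac lists and none of the 4 IgG lists had such a summit. This held for 10035 of 21887 protein-coding genes (45.8%), the share against which the counts of marked genes are read.

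Promoter sequences are shown first for genes on which the results turn. Marked genes are Hdac2, a nuclear deacetylase and a target of the drug class, Lipa, the lysosomal acid lipase, Ifngr1, a chain of the interferon gamma receptor, Cd68, a macrophage lysosomal glycoprotein, Cx3cr1, the microglial fractalkine receptor, and C1qc, a chain of complement C1q. Ly6g, a neutrophil surface marker, and Gad1, a neuronal enzyme of GABA synthesis, had no summit in any H3K27ac list. Each line gives the 250 bases before the RefSeq start site (GRCm38.p6, the mm10 build of the deposited files), 5′ to 3′ on the gene's strand. Capitals mark matches on either strand to the motifs searched: the TATA box (its letters TATAAA), the CCAAT box, the GC box (its letters GGGCGG), the ETS family motif (CCGGAAGT), the PU.1 motif (GAGGAAGT), the AP-1 motif (TGANTCA), the cAMP response element (TGACGTCA), the E-box (CACGTG) and the NRF1 motif. The PU.1 and ETS family motifs share their last 6 letters.
Hdac2 (chr10:36974294-36974543, plus strand): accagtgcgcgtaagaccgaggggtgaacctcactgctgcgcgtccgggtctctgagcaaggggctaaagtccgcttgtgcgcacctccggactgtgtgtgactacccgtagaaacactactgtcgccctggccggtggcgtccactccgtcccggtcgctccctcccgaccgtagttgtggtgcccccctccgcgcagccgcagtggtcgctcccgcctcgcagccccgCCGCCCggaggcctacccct
Lipa (chr19:34527475-34527724, minus strand): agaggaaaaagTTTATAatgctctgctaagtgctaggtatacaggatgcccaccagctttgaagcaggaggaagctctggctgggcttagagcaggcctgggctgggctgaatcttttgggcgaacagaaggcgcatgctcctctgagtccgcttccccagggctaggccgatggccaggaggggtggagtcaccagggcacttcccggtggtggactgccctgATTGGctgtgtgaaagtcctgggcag
Ifngr1 (chr10:19591699-19591948, plus strand): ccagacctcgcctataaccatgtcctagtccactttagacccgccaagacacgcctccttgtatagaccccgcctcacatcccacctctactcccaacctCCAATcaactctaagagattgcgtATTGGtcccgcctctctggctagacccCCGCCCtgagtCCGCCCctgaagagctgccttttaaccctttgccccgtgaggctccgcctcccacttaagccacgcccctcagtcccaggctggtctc
Cd68 (chr11:69666171-69666420, minus strand): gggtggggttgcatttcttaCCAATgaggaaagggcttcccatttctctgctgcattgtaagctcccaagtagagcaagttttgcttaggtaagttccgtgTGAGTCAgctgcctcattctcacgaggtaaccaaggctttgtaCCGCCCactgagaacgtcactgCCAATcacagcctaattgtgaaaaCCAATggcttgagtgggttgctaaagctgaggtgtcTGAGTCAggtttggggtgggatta
Cx3cr1 (chr9:120068297-120068546, minus strand): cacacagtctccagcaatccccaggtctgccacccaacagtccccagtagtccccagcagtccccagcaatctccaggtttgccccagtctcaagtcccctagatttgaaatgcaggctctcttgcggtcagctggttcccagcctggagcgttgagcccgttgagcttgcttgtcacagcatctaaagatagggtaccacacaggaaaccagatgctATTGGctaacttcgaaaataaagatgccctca
C1qc (chr4:136892915-136893164, minus strand): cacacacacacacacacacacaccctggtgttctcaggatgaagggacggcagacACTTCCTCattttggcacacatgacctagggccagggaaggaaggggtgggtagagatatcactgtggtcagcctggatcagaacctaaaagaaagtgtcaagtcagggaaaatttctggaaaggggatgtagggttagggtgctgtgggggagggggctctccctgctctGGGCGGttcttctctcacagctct
Ly6g (chr15:75155011-75155260, plus strand): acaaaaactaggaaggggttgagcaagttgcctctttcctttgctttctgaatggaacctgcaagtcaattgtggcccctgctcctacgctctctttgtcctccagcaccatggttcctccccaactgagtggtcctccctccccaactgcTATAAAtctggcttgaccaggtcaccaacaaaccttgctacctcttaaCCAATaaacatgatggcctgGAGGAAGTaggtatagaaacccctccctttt
Gad1 (chr2:70561879-70562128, plus strand): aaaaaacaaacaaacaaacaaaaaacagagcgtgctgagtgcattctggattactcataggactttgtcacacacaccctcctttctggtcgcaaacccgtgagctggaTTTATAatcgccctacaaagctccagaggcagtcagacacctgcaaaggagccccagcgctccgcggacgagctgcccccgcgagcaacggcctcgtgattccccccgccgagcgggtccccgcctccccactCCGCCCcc
The Hdac2 stretch has a single GC box, and the highest-ranked summits of the 4 lists lay -187, -192, -210 and -181 bases from its start site. At Lipa they lay at -43, -41, -27 and -45 bases, close to the CCAAT box nearest the start, and at Ifngr1 at -94, -17, 36 and -23 bases. Cd68 has 2 AP-1 matches and summits at -88, 21, -6 and 8 bases. Cx3cr1 has a single CCAAT box and summits at -26, 53, -283 and 46 bases, and C1qc a PU.1 match and a GC box and summits at -77, 70, -98 and -56 bases. The unmarked Ly6g stretch holds a TATA box, a CCAAT box and a PU.1 match, and the Gad1 stretch a TATA box and a GC box.

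The H3K27ac lists were far longer than the IgG lists, and a larger part of their summits lay at genes. The 4 H3K27ac lists held 236737, 229609, 246237 and 289017 summits and the 4 IgG lists 2572, 10186, 6077 and 2194. The groups did not overlap, and the H3K27ac lists were 57.7 times as long by the ratio of geometric means. The share of protein-coding genes with a summit within 1 kb of an end was 58.4%, 60.2%, 58.6% and 61.4% in the H3K27ac lists and 0.548%, 1.40%, 1.08% and 0.530% in the IgG lists (59.6% ± 1.45 against 0.891% ± 0.427, SD, n = 4 each). Since a long list meets more windows of any kind, the same windows were moved by 100 kb: 34.8% to 41.2% of the moved windows then held an H3K27ac summit and 0.361% to 1.52% an IgG summit. Gene ends were hit 1.60 ± 0.104 (SD, n = 4) times as often as moved windows in the H3K27ac lists, 1.49 to 1.73 by list, and 1.18 ± 0.247 (SD, n = 4) times in the IgG lists, 0.925 to 1.47 by list, where 1 would mean no preference.

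**Figure D1:**
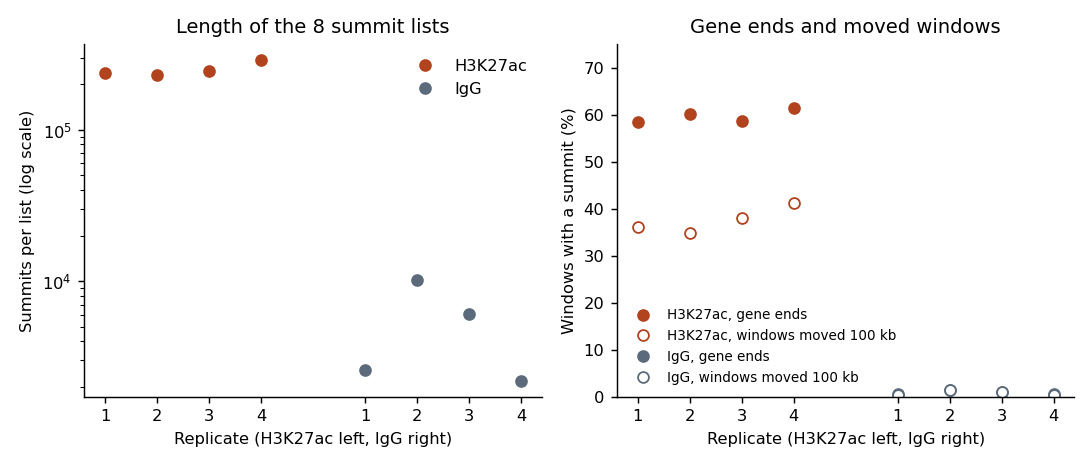
Left, number of summits in each of the 8 lists on a log axis; right, percentage of the 21887 protein-coding genes with a summit within 1 kb of an end (filled) and of the same windows moved by 100 kb (open), a point for each list. The H3K27ac lists sit between 58.4% and 61.4% at gene ends and between 34.8% and 41.2% at moved windows, and no IgG list exceeds 1.52% in either.

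The difference was also present at equal list length. Of the 2194 highest-ranked summits of each list, the length of the shortest, 50.7%, 62.6%, 49.2% and 52.3% lay within 1 kb of a gene end with H3K27ac, against 3.46%, 2.46%, 3.37% and 4.97% with IgG (53.7% ± 6.08 against 3.57% ± 1.04, SD, n = 4 each). These 2194 are the top end of each H3K27ac list but the whole of IgG replicate 4, lowest scores included. The contrast at equal length therefore mixes the antibody with the choice of high ranks. Over whole lists, 18.5% ± 0.907 of H3K27ac summits and 45.5% ± 1.63 of IgG summits lay over 10 kb from any protein-coding gene (SD, n = 4 each). The length, both gene-end shares, the ratio to moved windows and the distant share each gave p = 0.0286 in the two-sided exact permutation test over the 70 splits of 4 against 4 lists, the smallest value it allows (Benjamini-Hochberg adjusted over the 5, 0.0286). The ratio to moved windows, 1.37 times higher with H3K27ac, no longer passed when any H3K27ac replicate was left out (p = 0.0571, exact permutation). With H3K27ac lists held to their 30000 highest-ranked summits it was 3.97 times higher than with IgG (p = 0.0286, exact permutation). The size of this ratio thus depends on how much of each H3K27ac list is used.

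Near start sites, high-ranked H3K27ac summits stood more often upstream than downstream. Of the 2194 highest-ranked, 13.4%, 24.98%, 10.3% and 16.5% lay in the 100 bases upstream of a RefSeq start site (16.3% ± 6.30, SD, n = 4), against 0.103% ± 0.0940 with IgG (SD, n = 4). The wider 250 bases upstream held 26.5% ± 8.05 of them and the 250 bases downstream 13.3% ± 1.81 (SD, n = 4 each). The median position of summits within 1 kb was -49, -56, -4 and -49 bases. Replicate 2 had the most and replicate 3 the fewest high-ranked summits just upstream of start sites.

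**Figure D2:**
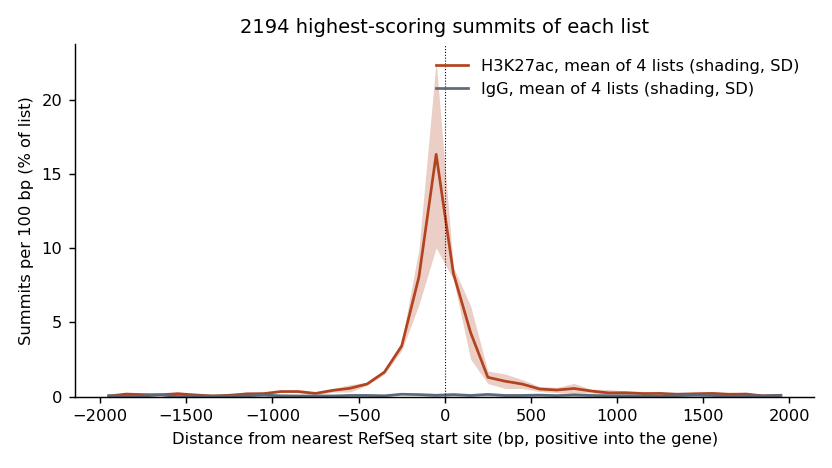
Percentage of the 2194 highest-ranked summits of each list in each 100-base step around the nearest RefSeq start site, with distance in bases, positive into the gene; lines are means of 4 lists and shading the SD. H3K27ac peaks at 16.3% in the 100 bases before the start site, where IgG is at 0.103%.

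The promoters that carried the mark differed in base composition from those that did not. Of 21263 RefSeq start sites, 9757 (45.9%) had a summit within 1 kb in all 4 H3K27ac lists and no IgG list, and 6548 had none in any H3K27ac list. Over the 300 bases around the start site, from 250 upstream to 50 downstream, the median GC content was 61.3% at marked and 47% at unmarked sites, with 22 and 3 CpG dinucleotides, against 56.3% and 13 over all start sites. The GC box was found in 65.6% of marked and 19.9% of unmarked promoters (46.2% of all), the ETS family motif in 9.64% and 0.672% (5.15% of all), the cAMP response element in 3.48% and 0.916% (2.23% of all), the NRF1 motif in 2.39% and 0.244% (1.33% of all) and the E-box in 10.4% and 4.44% (7.84% of all). The TATA box ran the other way, at 6.22% of marked and 22.8% of unmarked promoters (12.6% of all), as did the AP-1 motif at 4.62% and 9.91% (6.99% of all). The CCAAT box stood at 38.4% and 40.1% (38.2% of all) and the PU.1 motif at 3.36% and 3.22% (3.13% of all). These are shares of letters in a window that differs in GC content between the sets, and start sites of the same gene or of facing genes share sequence, so no test was made.

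Macrophage identity genes ranked near the top of the 4 lists. The pan-macrophage list had 16 of 18 genes marked, with a median mean percentile of 95.8, against 45.8% of genes and a median of 41.3 over all protein-coding genes. Housekeeping genes stood as high, with 19 of 20 marked (median 96.7), so this level is not particular to macrophage genes. Spi1, which encodes PU.1, stood at percentiles 99.9, 99.8, 99.8 and 96.4. Csf1r, a receptor tyrosine kinase for CSF1 and IL-34, stood at 95.3, 94.7, 96.9 and 98.7. Itgam, the gene of the sorted antigen, stood at 76.9, 92.5, 92.7 and 93.4, lower in replicate 1 than in the other 3. High means in the list included Tyrobp, the signalling adaptor of TREM2, at 99.8 ± 0.230 and Cd68 at 98.3 ± 1.49 (SD, n = 4 each). Windows of Csf1r, Tyrobp and Cd68 also reach the end of a neighbouring gene. The exceptions were Lcp1, an actin bundler of leukocytes without a summit at its ends in replicate 3, and Mertk, a receptor for apoptotic cells marked in all 4 H3K27ac lists but also with a summit in 1 IgG list.

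Lineage transcription factors showed similarly high ranks. In all, 20 of 22 were marked (median 92.6). Cebpa, a myeloid C/EBP factor, stood at 99.2, 99.2, 99.6 and 97.8, and Klf6, a zinc finger factor, at 99.3 ± 0.483 (SD, n = 4). Mef2c, a microglial regulator, and Tfec, a relative of the lysosomal factor TFEB, had a summit at their ends in 2 lists each, although 21 regions found in all 4 lists and free of IgG lay across the Mef2c gene. Of signal-dependent factors 21 of 24 were marked (median 95.4), led by Rela, the p65 subunit of NF-kB, at 99.6 ± 0.236, Stat3 at 99.6 ± 0.513 and the AP-1 subunit Jun at 99.4 ± 0.956 (SD, n = 4 each). Fos, its partner in AP-1, ranked at 98.7 ± 0.665 (SD, n = 4) but had an IgG summit in 1 list, and Egr2 and Nfkb2 lacked a summit in 1 H3K27ac list each.

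Of 22 homeostatic microglial genes 18 were marked (median 92.1), and of 18 genes listed for monocyte-derived macrophages 6 (median 56.2), a share below the 45.8% of all genes. Cx3cr1 stood at 98.5, 97.2, 97.5 and 99.2. P2ry12, the microglial ADP receptor, stood at 97.8, 77.3, 94.1 and 97.5 and Tmem119, a microglial membrane protein, at 96.8, 96.7, 94.7 and 90.2, so both were in all 4 H3K27ac lists, but IgG replicate 2 had a summit at each and they were not called. Bin1, a membrane-bending adaptor, ranked at 97.5 ± 2.25 (SD, n = 4). Among the monocyte-derived genes, Lgals3, which encodes galectin-3, stood at 99.2 ± 0.313 and the integrin chain Itga4 at 88.3 ± 9.51 (SD, n = 4 each). Ccr2, the receptor that recruits monocytes, stood at 12.6, 24.997, 0 and 84.8, and Ly6c2, the antigen of inflammatory monocytes, at 0 in every list. Mrc1, the mannose receptor, stood at 85.7, 81.4, 0 and 84.8, absent from replicate 3. The monocyte-derived share passed that of all genes when H3K27ac replicate 3 was left out (10 of 18, 55.6% against 48.4%) or the window widened to 2500 bases (11 of 18, 61.1% against 51.5%). The 2 lists were not compared by a test.

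**Figure D3:**
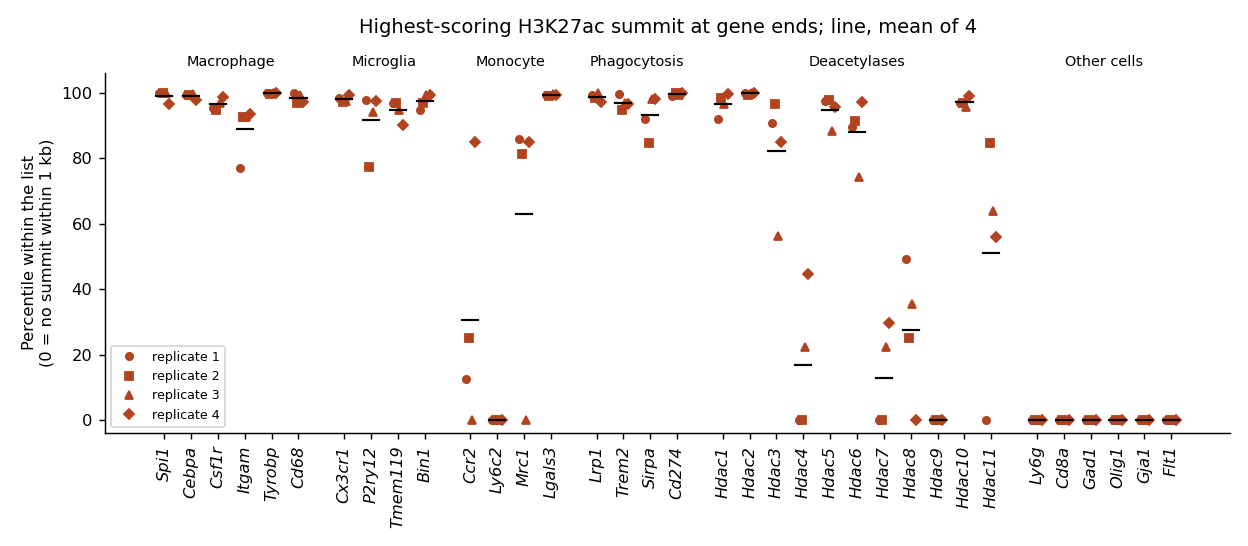
Percentile of the highest-ranked H3K27ac summit within 1 kb of a gene end for 6 groups of genes; each marker is a replicate and each line the mean of 4. Macrophage genes have means between 88.9 (Itgam) and 99.8 (Tyrobp), and the deacetylases run from 0 (Hdac9) to 99.8 (Hdac2). The 6 genes of other cells at the right were taken from those without a summit in any list. All of their lists but the neuronal one had other members that were marked.

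The machinery for engulfing and degrading particles was marked at most of its listed genes, the phagocytic receptors less often. Lysosomal genes were marked in 29 of 31 cases (median 98.3): Lipa at 99.8, 99.99, 99.9 and 99.99, Atp6v0c, a subunit of the acidifying proton pump, at 99.9 ± 0.0857, and Ctsd, the aspartic protease cathepsin D, at 99.8 ± 0.121 (SD, n = 4 each). Of these 31 genes 18, Atp6v0c among them, have windows that also reach another gene end, a share above the 32.2% of all genes. Engulfment genes were marked in 29 of 30 (median 95.1), led by Rhoa, a GTPase of the actin cytoskeleton, at 99.7 ± 0.170 (SD, n = 4), Actr3, a subunit of the actin-branching Arp2/3 complex, and the SRC-family kinase Lyn. Gulp1, an engulfment adaptor, had no summit at its ends. Phagocytic receptors reached 17 of 30 (56.7%, median 89.4), a share not far from the 45.8% of all genes. Lrp1, a scavenger receptor for apoptotic cells, stood at 99.2, 98.4, 99.9 and 97.2 and Trem2, a lipid-sensing receptor, at 99.7, 94.7, 96.9 and 96.4. Cd36 and Tyro3, receptors for oxidised lipids and for apoptotic cells, were at 0 at their gene ends. C1qa, a chain of complement C1q, ranked at 97.9 ± 1.01 (SD, n = 4) with an IgG summit in 1 list. Of lipid-associated macrophage genes 22 of 25 were marked (median 94.2), with Apoe, the lipid carrier, at 85.7, 94.98, 97.96 and 86.9.

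Of checkpoint and don't-eat-me genes 19 of 22 were marked (median 86.7). Cd274, which encodes PD-L1, stood at 99.04, 99.9, 99.1 and 99.97, and Sirpa, the receptor through which CD47 restrains phagocytosis, at 92.03, 84.5, 97.96 and 98.01. Nectin2, a ligand of TIGIT, stood at 99.3 ± 0.372 and Vsir, which encodes VISTA, at 98.04 ± 1.197 (SD, n = 4 each). Tigit, a lymphocyte receptor, and Vsig4, a macrophage complement receptor, had no H3K27ac summit at their ends, and Vsig4 had a summit in 1 IgG list. Genes of immunosuppression and repair were marked in 14 of 23 cases (median 66.1), with Il4ra, a receptor chain for IL-4 and IL-13, at 98.6 ± 0.913 and Tgfbr1, a TGF-beta receptor, at 99.04 ± 1.36 (SD, n = 4 each), and Ido1, a tryptophan-degrading enzyme, at 0.

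Interferon, NF-kB and MHC genes were marked almost throughout. All 27 interferon-response genes present in the gene table were marked (median 94.6), among them Ifngr1 at 99.9, 99.9, 99.99 and 99.99, Ifngr2, its partner chain, at 99.2 ± 0.776 and Irf9, the DNA-binding part of the type I interferon complex, at 99.1 ± 0.890 (SD, n = 4 each). Of NF-kB and inflammatory genes 21 of 24 were marked (median 95.6), led by Birc3, an inhibitor of apoptosis, at 99.9 ± 0.0362 (SD, n = 4). MHC class I genes reached 16 of 17 (median 97.5) and class II genes also 16 of 17 (median 81.1), with Tapbp, the tapasin that loads class I molecules, at 99.3 ± 0.124 and H2-DMa, a class II loading chain, at 96.02 ± 2.197 (SD, n = 4 each). Windows also reach another gene end in 9 of 17 class I genes, Tapbp among them, and in 7 of 17 class II genes. Complement genes were marked in 12 of 20 cases (median 75.0), with C5ar2, a receptor of the C5a fragment, at 99.03 ± 1.06 (SD, n = 4) and Cd55 and Serping1, inhibitors of complement, at 0.

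**Figure D4:**
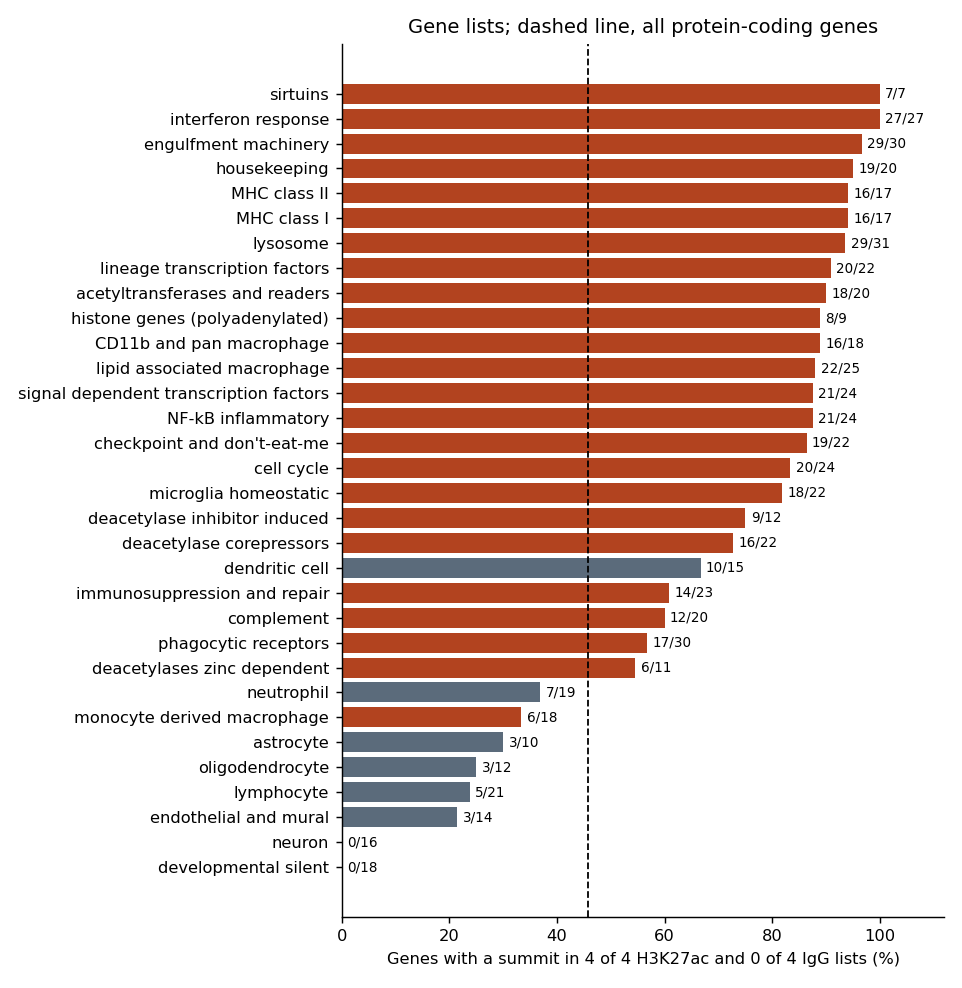
Percentage of each of the 32 gene lists with a summit within 1 kb of a gene end in 4 of 4 H3K27ac and 0 of 4 IgG lists, with counts beside the bars; grey bars are markers of other cells and developmental genes, and the dashed line is the 45.8% of all protein-coding genes. The 8 lists below the line are neutrophil, monocyte-derived, astrocyte, oligodendrocyte, lymphocyte, endothelial, neuronal and developmental genes.

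The genes of the deacetylase class at which the drug is aimed were unevenly marked. Of the 11 zinc-dependent deacetylases 6 were marked (median 82.1), a share not far from the 45.8% of all genes. Hdac2 stood at 99.99, 99.3, 99.99 and 99.99 and its paralogue Hdac1 at 92.03, 98.5, 96.5 and 99.5. Hdac3, the catalytic subunit of the NCoR complex, stood at 90.8, 96.5, 56.2 and 84.8. The tubulin deacetylase Hdac6 stood at 89.4, 91.3, 74.3 and 97.2, Hdac5 at 94.8 ± 4.35 and the polyamine deacetylase Hdac10 at 97.1 ± 1.39 (SD, n = 4 each). Hdac11 stood at 0, 84.5, 63.7 and 56.001 and Hdac8 at 49.02, 24.997, 35.3 and 0. Hdac7 stood at 0, 0, 22.2 and 29.6, Hdac4 at 0, 0, 22.2 and 44.6, and Hdac9 at 0 throughout. These values depend on which end is read. The RefSeq start site of Hdac4, inside the ends of the gene model, had summits at percentiles 95.9, 95.8, 96.2 and 98.9 in the 4 lists, -370, -233, -347 and -390 bases away, with no IgG summit. By contrast, no Hdac7 or Hdac9 start site was in all 4 lists. Windows of Hdac1, Hdac3, Hdac5, Hdac6, Hdac7 and Hdac10 also reach the end of a neighbouring gene, so their summits cannot be assigned to the deacetylase alone. The 7 sirtuins, NAD-dependent deacetylases outside the drug's class, were all marked (median 94.3), 6 of them in windows shared with a neighbour.

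The writers, readers and partners of the mark were mostly marked themselves. Of acetyltransferases and bromodomain readers 18 of 20 were marked (median 87.2). Ep300, which encodes p300, stood at 96.4, 97.6, 97.2 and 96.4. Crebbp, which encodes CBP, stood at 0, 91.9, 74.3 and 96.8 at its gene ends, but its RefSeq start site had summits in all 4 lists, at 67.04, 91.9, 74.3 and 96.8. The highest of the list were the acetyltransferase Kat7 at 98.1 ± 2.1995, Brd2 at 97.5 ± 1.47 and Brd9 at 97.2 ± 2.10 (SD, n = 4 each). Of corepressor subunits 16 of 22 were marked (median 93.6), led by the NuRD members Mbd3 at 99.8 ± 0.0382, Gatad2a at 99.7 ± 0.236 and Mta2 at 99.3 ± 0.727 (SD, n = 4 each). Among genes known to be induced by deacetylase inhibitors 9 of 12 were marked (median 87.3). Cdkn1a, the p21 cell-cycle inhibitor of that list, stood at 80.4, 84.5, 69.6 and 44.6 at its gene ends and at 99.7, 98.9, 97.5 and 98.7 at its inner RefSeq start site. Gadd45a, a stress-response gene, stood at 96.5 ± 3.32 and Klf2, a zinc finger factor, at 98.2 ± 2.003 (SD, n = 4 each), whereas Clu and Dhrs2 were at 0. In the vehicle lists Gadd45a stood at 94.0, 94.0 and 99.5 and Klf2 at 92.2, 99.1 and 94.1. Cdkn1a stood there at 79.1, 0 and 82.9 at its gene ends, and Dhrs2 at 26.8, 0 and 0. High ranks at Gadd45a and Klf2 were thus not particular to the drug-exposed lists, and a drug effect at these genes was not tested. Of polyadenylated histone genes 8 of 9, of cell-cycle genes 20 of 24 and of housekeeping genes 19 of 20 were marked (medians 92.7, 85.4 and 96.7), with Actb at 96.8 ± 1.85 and Gapdh at 99.5 ± 0.315 (SD, n = 4 each). With lists held to 30000 summits, 4 of 24 cell-cycle genes were marked (16.7%), below the 19.7% of all genes.

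Apart from the dendritic cell list, genes of other lineages were mostly unmarked, with exceptions. None of 16 neuronal genes (median 1.32) and none of 18 developmental genes (median 0) was marked. Marked genes numbered 3 of 10 for astrocytes (median 30.3), 3 of 12 for oligodendrocytes (median 9.29), 3 of 14 for endothelial and mural cells (median 23.3) and 5 of 21 for lymphocytes (median 17.5). Gja1, an astrocyte gap junction protein, Olig1, an oligodendrocyte factor, Flt1, an endothelial VEGF receptor, and Cd8a, a T-cell coreceptor, were at 0 in every list. The exceptions included Slc1a3, a glutamate transporter, at 83.97 ± 8.51, Mbp, myelin basic protein, at 91.4 ± 8.07 and Kdr, an endothelial VEGF receptor, at 91.1 ± 2.96 (SD, n = 4 each). Cd5, a lymphocyte antigen, ranked at 90.6 ± 5.60 (SD, n = 4) but had an IgG summit in 1 list and was not called. Cd3d and Cd79a, antigen receptor subunits of T and B cells, were marked in windows that also reach Cd3g and Arhgef1. Neutrophils carry CD11b and can pass the sort. Of their genes 7 of 19 were marked (36.8%, below the 45.8% of all genes), with medians by list of 33.98, 37.3, 35.3 and 44.6. S100a8, a calcium-binding alarmin, stood at 97.5, 88.1, 74.3 and 95.5, and Ly6g and Retnlg at 0. The neutrophil count was 11 of 19, above the share of all genes under that setting (57.9% against 47.1%), when H3K27ac replicate 4 was left out, and 12 of 19 (63.2% against 51.5%) with a window of 2500 bases. It was 4 with a window of 500 bases and 2 (11.8% of those with a start site) with start sites only. Of dendritic cell genes 10 of 15 were marked (66.7%, median 69.4), a share above the 45.8% of all genes. The top-ranked of them, Xcr1, a chemokine receptor, shares its window with Fyco1. The part that neutrophils, dendritic cells or glia had in the lists was not tested.

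The genes ranked highest in all 4 lists were of mixed function. The 12 highest by their lowest replicate included Zbtb7b, a zinc finger repressor, at 99.98 ± 0.0164, the neighbours Prpf4, a splicing factor, and Cdc26, a subunit of the anaphase-promoting complex, at 99.97 ± 0.0185 for both, and Rita1 and its neighbour Ddx54, a helicase, at 99.97 ± 0.0247 for both (SD, n = 4 each). The others were BC005537, Birc3, Ifngr1, Irf2bp2, a partner of the interferon regulatory factor IRF2, Ppp2r5c, a subunit of protein phosphatase 2A, and the neighbours Fyco1 and Xcr1. Neighbours with a common window share their summits: 48.9% of marked genes share a window with another gene end, against 32.2% of all genes. Stat3, Lgals3, Itga4, Rhoa, Apoe, Nectin2 and Irf9, among others named above, have such windows. Their summits cannot be assigned to these genes alone.

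Summits were then merged across the 4 H3K27ac lists, each widened by 250 bp on either side, into 439393 regions. Most were private to a replicate: 284481 (64.7%) held summits of 1 list, 74078 of 2, 34819 of 3 and 46015 (10.5%) of all 4. Of the latter 972 (2.11%) had an IgG summit inside, leaving 45043 clean regions, 10.3% of all regions, with a median width of 1467 bases (507 to 16489) and 77.3 Mb in sum. Of the clean regions 9654 (21.4%) had their best summit within 1 kb of a gene end, 25186 (55.9%) inside a gene, 4091 (9.08%) within 10 kb outside a gene and 6112 (13.6%) farther away. The share of regions that were clean was 32.3% at gene ends, 10.0% inside genes, 8.32% near genes and 5.57% far from genes, beside the 10.3% over all. Clean regions at gene ends also ranked higher, with a median percentile of 89.8 against 71.8, 73.1 and 73.9.

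The best-ranked distal regions included a pair beside the myeloid factor gene Cebpb. These lay at chr2:167751416-167756429 and chr2:167758623-167761388 (mm10), 63693 and 69696 bases from Cebpb, the nearest protein-coding gene. The first held 9, 9, 8 and 10 summits in the 4 lists and the second 7, 6, 4 and 7, with best percentiles of 99.9 ± 0.101 and 99.99 ± 0.00599 (SD, n = 4 each). Cebpb itself stood at 92.03, 94.98, 96.9 and 79.2. The widest of the 8 best, chr8:84197160-84206505, lay 12378 bases from Zswim4 and held 20, 18, 23 and 13 summits, and chr8:126843810-126850316, 80607 bases from Tomm20, held 16, 18, 13 and 9. The other 4 were nearest to Shcbp1l (10728 bases), Nenf (25437 bases), Ccnl1 (12859 bases) and Akain1 (20552 bases). That near Shcbp1l, chr1:153414111-153414930, ranked first of the 8, at percentiles 100, 99.9991, 100 and 100, with only 2, 1, 2 and 2 summits. Nearness assigns no target, and no sequence is shown for these sites because no genome was used here. Of distal clean regions 2208 lay over 50 kb, 1078 over 100 kb and 24 over 500 kb from any protein-coding gene.

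Intragenic regions of the highest rank lay in genes of varied roles. Sbno2, a transcriptional coregulator, held chr10:80070572-80078049, 18491 bases from the nearest gene end, with 21, 21, 17 and 15 summits. Myh9, a non-muscle myosin heavy chain, held chr15:77796735-77802881 with 13, 11, 11 and 10, and Slc6a6, the taurine transporter, chr6:91711254-91714659 with 9, 8, 9 and 4. The first-ranked, chr11:3192072-3195220 inside the centrosomal gene Sfi1, held 7, 7, 5 and 4 summits. Sfi1 is known for repeated sequence that collects reads in many assays, no list of such intervals was applied here, and the part of this in its rank was not tested. The other 4 were in 3110082I17Rik with C130050O18Rik, Cln8, 1600014C10Rik and BC049352. Clean regions hold no IgG summit by their definition.

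Clean regions within 5 kb of each other were joined into 19513 loci, of which 503 (2.58%) held 10 or more regions. These dense loci carried 7261 clean regions (16.1%) over 20.9 Mb, with a median length of 37.2 kb and a longest of 122 kb, and overlapped 803 protein-coding genes (3.67%). By number of regions the first was Tns3, a focal adhesion protein gene, with 46 at chr11:8547470-8669787 and 159, 155, 140 and 143 summits against 0 in every IgG list. Ptprj, a receptor phosphatase, followed with 43 regions and 109, 119, 99 and 116 summits, and a locus across Vhl, Irak2, Tatdn2 and Ghrl, of which Irak2 is a kinase of Toll-like receptor signalling, with 41 regions and 119, 131, 113 and 125. Other loci among the first 8 by number were Amz1 with Gna12, a G-protein subunit, the kinase Map4k4, Lrp1 with Stat6 and Nab2, and Lrrfip1. The Lrp1 locus, at chr10:127553501-127669589, joined 35 regions from the phagocytic receptor to Stat6, the factor of IL-4 signalling, with 145, 157, 132 and 153 H3K27ac summits and no IgG summit. Sipa1l2 had as many regions as Lrrfip1 (33). The number of dense loci moved with the settings, from 507 to 907 when a library was left out (907 without H3K27ac replicate 3) and to 0 when lists were held to 30000 summits.

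Among listed macrophage genes, 7 of 18 of the pan-macrophage list overlapped a dense locus, 8 of 22 of the microglial list, 8 of 22 of the lineage factors and 11 of 30 of the engulfment genes. Over all protein-coding genes the share was 3.67%, and it was 1 of 18 for monocyte-derived genes and 0 of 16 for neuronal genes. Cx3cr1 lay with Xirp1 in a locus of 25 regions at chr9:120012528-120073664, with 76, 76, 64 and 77 H3K27ac summits and none with IgG. A longer gene has more room for regions: Cx3cr1 held 10 clean regions in 19.6 kb, Csf1r 7 in 25.6 kb, Bin1 19 in 59.1 kb, Hdac4 15 in 267 kb and Hdac9 6 in 870 kb.

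MicroRNA genes were read in the same way, because several are known regulators in myeloid cells. Of 1005 RefSeq hairpins 218 (21.7%) had a summit within 1 kb in all 4 H3K27ac lists and no IgG list. The mature sequences follow for those described, with the seed (bases 2 to 8) in capitals.
mmu-miR-142a-3p: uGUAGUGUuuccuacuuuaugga
mmu-miR-142a-5p: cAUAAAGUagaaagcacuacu
mmu-miR-146a-5p: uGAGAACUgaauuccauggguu
mmu-miR-146b-5p: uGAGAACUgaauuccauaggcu
mmu-miR-21a-5p: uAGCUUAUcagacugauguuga
mmu-miR-223-3p: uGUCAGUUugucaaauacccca
mmu-miR-155-5p: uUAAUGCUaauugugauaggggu
mmu-miR-9-5p: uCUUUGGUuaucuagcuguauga
Mir142, the hairpin of a microRNA of blood cells, stood at percentiles 92.03, 95.8, 98.9 and 90.2. The products of Mir146 and Mir146b, known to restrain NF-kB signalling, share the seed GAGAACU. Mir146b stood at 85.7, 98.03, 89.7 and 97.8, and Mir146, the hairpin of miR-146a, at 83.3, 96.1, 46.7 and 10.6, a far wider spread. Mir21a stood at 80.4, 88.1, 80.8 and 70.5. Mir223, of granulocytes and monocytes, was in 3 of 4 lists, at 67.04, 37.3, 0 and 70.5. Mir155, induced by inflammatory signals, and Mir9-1 and Mir9-2, of the nervous system, had no summit within 1 kb in any list. A summit near a hairpin can belong to a host gene or neighbour, and a primary transcript can start well outside this window.

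High-ranked summits were mostly shared by the 4 H3K27ac replicates and low-ranked ones were mostly not. Between pairs of replicates, 49.5% to 59.1% of the 30000 highest-ranked summits lay within 250 bp of such a summit in the other list (mean 54.0% of 6 pairs), against 1.91% when 1 of the lists was moved by 100 kb. Replicates 1 and 2 shared the most (59.1%) and replicates 3 and 4 the least (49.5%). At 2194 summits H3K27ac pairs shared 32.8% to 44.1% and IgG pairs 0.0456% to 0.182%, with no test because pairs share lists. When each list was cut into 10 equal parts by rank, 66.1% to 72.6% of the top part recurred in all 3 other lists and 1.01% to 2.90% in none. In the lowest part 1.69% to 3.59% recurred in all 3 and 60.7% to 68.6% in none. Over whole lists 15.04% to 19.6% of summits recurred in all 3 others.

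**Figure D5:**
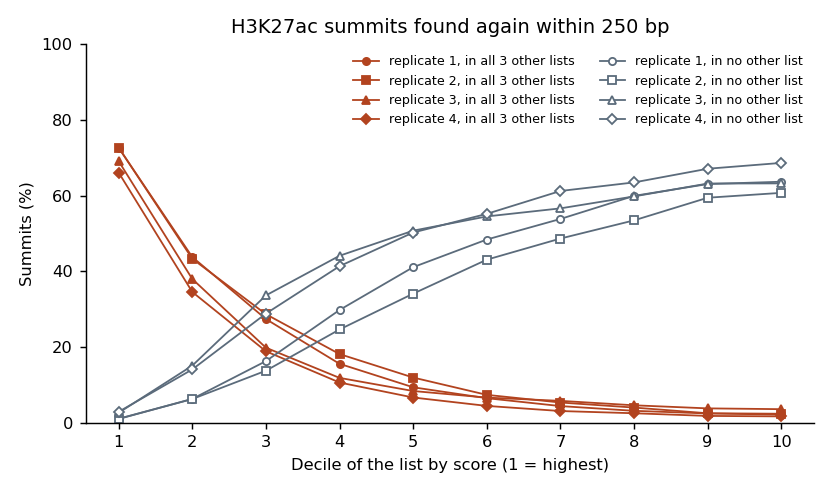
Percentage of the summits in each decile of an H3K27ac list, by rank, with a summit within 250 bp in all 3 other lists (filled) or in none (open), a line for each replicate. The share found in all 3 falls from between 66.1% and 72.6% in the top decile to between 1.69% and 3.59% in the lowest.

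The order of the ranks was shared in part. Across the 45043 clean regions, Spearman's rho of the percentiles between pairs of replicates was 0.579 to 0.674, and across the 10035 marked genes 0.613 to 0.712, given as descriptions because regions and genes are not independent and were chosen for being present in all 4 lists. The median offset between paired summits of the top 30000 was 49 to 64 bases. Pairs with replicate 3 had the lowest shares, the lowest rho over regions and genes and the largest offsets, and replicate 3 lacked a summit at Mrc1, Lcp1 and Ccr2, which the other 3 had.

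IgG summits seldom recurred. Of 20924 IgG sites, merged in the same way, 20838 (99.6%) came from 1 list, 85 from 2, 1 from 3 and 0 from 4. The site in 3 lists lay at chr11:43549215-43550206 inside Ccnjl, a cyclin-like gene, and had an H3K27ac summit in replicate 4. At gene ends, 754 genes had a summit in 1 IgG list, 13 in 2 and 0 in 3 or 4. Of the summits of the IgG lists, 17.3% to 20.1% lay within 250 bp of an H3K27ac summit, against 12.97% to 14.2% after a move of 100 kb.

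No difference from the vehicle lists in where summits lie passed the test. Of the 30000 highest-ranked summits, 34.2%, 39.4%, 33.3% and 34.7% lay at gene ends in the pracinostat lists and 38.97%, 25.8% and 34.7% in the vehicle lists (35.4% ± 2.71, SD, n = 4, against 33.2% ± 6.71, SD, n = 3; p = 0.686, exact permutation over 35 splits, two-sided, adjusted 0.686). Shares inside genes (46.4% ± 2.62 against 48.02% ± 4.70) and over 10 kb away (10.7% ± 0.288 against 11.2% ± 1.77) also overlapped between the groups, each with p = 0.629 (exact permutation, adjusted 0.686). A p that misses the threshold does not show that the profiles are alike. In vehicle replicate 2, 65.3% of the 53503 summits share the lowest score, against 19.5% and 15.6% in vehicle replicates 1 and 3. Part of its 30000 was therefore drawn at random among tied summits, and its 25.8% is not that of high ranks alone. Of the 45043 clean regions, 84.2%, 43.05% and 86.1% had a summit in vehicle lists of 208401, 53503 and 291042 summits, the lowest share going with the shortest list. At Cx3cr1 the vehicle percentiles were 96.7, 32.6 and 99.1, and at Hdac2 99.99, 99.5 and 99.99. The 32.6 is the common percentile of all summits tied at the lowest score of vehicle replicate 2, so it does not measure a weaker mark.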

How the data were processed

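H3K27ac and IgG CUT&Tag libraries of sorted CD11b+ cells were grouped by their labels; per the labels, sequencing aimed at 10 M reads per sample; the reads obtained are not given here. The submitters' processing notes name Bowtie2, MACS2 2.2.9.1, DESeq2, HOMER and the build mm10, without their roles. The deposited files have no header: each lists the 1-base summits of a single library, and its score is a −log10 of a p or q value (which is not stated), as deposited by the authors. Whether IgG served as the caller's control, the calling threshold, and the treatment of reads from human tumour cells are likewise not stated. The number of summits therefore reflects depth and threshold as well as the mark, and scores were used only as ranks within a list. The score of an H3K27ac list is never compared with that of an IgG list.

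From these, gene ends of RefSeq (GRCm38.p6) protein-coding genes, 5′ start sites of 17492 genes, and microRNA hairpins were matched within 1 kb with Python 3.11.15, numpy 2.4.6, pandas 2.3.3 and scipy 1.17.1. Chromosome 18 has no start sites in the table used. Library measures were compared by two-sided exact permutation tests, Benjamini-Hochberg adjusted. Each p-value is the share of relabellings of these libraries that gave a difference at least as large. The main tests treat the libraries as unpaired. Counts of genes, regions and loci carry no test. Of 571 listed genes 569 matched. Scripts were tested on simulated lists. The gene ends, regions, lists and members were chosen with earlier results of these data known. Genes named are fixed ones, the 12 ranked highest in their lowest replicate, the 3 highest of each list and up to 3 without a summit; 8 distal regions, 8 intragenic regions and 8 loci were taken by rank. Some genes and a locus that these rules name are not reported here. Exceptions to a list, start-site values and the genes set beside dense loci were named after their values were seen, and the microRNAs were picked by known biology. Alternatives were other windows, distances, list lengths, start sites only, all 7 IgG lists, a replicate block and each library left out.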

Additional observations from a re-analysis of the deposited data

Results flagged for a closer look

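In groups of 4 libraries, 128 sets of values were examined for a library far from the other 3 (by Dixon's criterion at 95%), and 13 were found. Chance gives about 1 in 20 for independent, normally distributed values. Percentiles are bounded, and a gene with a summit in only 1 list is always flagged, so the count cannot be read against that rate. No library measure (number of summits, shares at gene ends or far from genes) was among them; all were percentiles of single genes in H3K27ac lists. Replicate 3 was the low library at Mrc1 (0), Aldoc, an astrocyte glycolytic enzyme (46.7), Jun (97.96) and Klf2 (95.3). Replicate 1 was low at Itgam (76.9) and the only list with a summit at Pdx1, a pancreatic factor (49.02). Replicate 2 was low at Hdac2 (99.3) and at Nfkbib and Sirt2, which share a summit (97.8 for both), and the only list with a summit at Myog, a muscle factor (59.9). Replicate 4 was low at Spi1 (96.4), the only list with a summit at Hoxd13, a limb patterning gene (44.6), and high at Slc32a1, a neuronal transporter (64.3). Mrc1 is the gene on which a call turned.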

How the results depend on the processing

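With same-numbered H3K27ac and IgG libraries as a replicate block (sign flips of 4 pairs), the contrasts kept their values, 57.7 for the ratio of list lengths, 58.7 and 50.1 percentage points for gene ends over all summits and at equal length, 1.37 for the ratio to moved windows and -27.0 points for distant summits, each at p = 0.125 (exact permutation), the smallest the block allows; deviations of same-numbered libraries over 5-Mb bins correlated at -0.0613 to 0.0472, which in lists this sparse does not show whether they share an animal. Leaving out a library moved the length ratio between 46.0 and 76.8, gene ends between 58.1 and 59.2 points, equal length between 47.2 and 51.6 and distant summits between -27.7 and -26.6, all at p = 0.0286 (exact permutation), and the ratio to moved windows between 1.27 and 1.48 with p up to 0.0571 (exact permutation) without any H3K27ac replicate. Clean regions ran from 45178 to 59152, distal regions from 6130 to 8301, dense loci from 507 to 907 (784, 757 and 907 without H3K27ac replicates 1, 2 and 3), marked genes from 10106 to 10583 and pair agreement from 52.4% to 56.6%, as fewer lists are easier to satisfy. With H3K27ac lists held to 30000 summits, 7807 clean regions, 697 distal regions, 0 dense loci and 4315 marked genes (19.7%) remained. Distal regions over 50 kb numbered 2208. Dense loci numbered 87 with 500 bp as shared distance, 915 when joined within 12.5 kb and 180 at 15 regions per locus. Pair agreement was 36.8% at 100 bp, 63.5% at 500 bp, 48.4% at 10000 and 47.9% at 100000 summits. The differences from vehicle changed sign at 10000 summits (gene ends -1.19 points, p = 0.629; inside genes 0.846, p = 0.743; far 0.266, p = 0.714; exact permutation) and without H3K27ac vehicle replicate 2 (-1.43, 1.04 and 0.351, p = 0.667, exact permutation), whose list is the shortest, and over all libraries left out they ran from -1.43 to 5.14, -3.19 to 1.04 and -1.40 to 0.351 points. Among alternatives for named genes, 823 of 882 stayed within the SD and 59 moved. Leaving out an H3K27ac library cannot shift a mean of 4 beyond their SD. Only the changes of window could therefore count as moved, and the 823 are no measure of stability to a left-out library. Against all genes, monocyte-derived, neutrophil and cell-cycle lists changed side in 2, 2 and 1 of 13 alternatives. The obtained depth is unknown here, so a list without a summit shows only that none was called.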

Other observations

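Among the dense loci, 25 overlapped no protein-coding gene. The one with the most regions, at chr8:126797144-126894960, held 29 clean regions over 97.8 kb, with 125, 122, 98 and 105 H3K27ac summits in the 4 lists and no IgG summit, and contains the distal region nearest to Tomm20 described above. Another, at chr7:90015469-90071012, held 25 regions over 55.5 kb with 65, 58, 65 and 60 H3K27ac summits and an IgG summit in 2 of the 4 IgG lists. Both were chosen after their values were seen.

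By chromosome, clean regions numbered 1.48 (chromosome 7) to 2.62 (chromosome 15) per protein-coding gene on the autosomes, 0.694 on chromosome X (670 regions for 966 genes) and 0 on chromosome Y (256 genes). The factors that give each chromosome its count were not tested.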
